A study of Caenorhabditis elegans with 6 samples.

Results

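The metallothionein genes of *Caenorhabditis elegans*, *mtl-1* (K11G9.6) and *mtl-2* (T08G5.10), were followed in whole worms kept in water, in the solvent DMSO or in the flavone baicalein dissolved in DMSO. Metallothioneins are small proteins rich in cysteine that bind zinc, copper and cadmium through their thiol groups. In *C. elegans* both genes are switched on in the intestine by cadmium, *mtl-1* is also active without metal in the posterior bulb of the pharynx, and *mtl-1* is a commonly used target of DAF-16, the transcription factor that insulin signaling keeps out of the nucleus. The members are the probe sets that a deposited comparison table names *mtl-1* or *mtl-2*. There are 2 of them, probe set 18593397 for *mtl-1* and probe set 18595810 for *mtl-2*, among 29317 probe sets on the array. RefSeq places both genes on chromosome V, and their positions are not given because the sources used here do not name the genome build of the array annotation.

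The samples were wild-type N2 worms, described as young adults 3 days after hatching, with treatment begun 16 to 18 h after hatching and continued for 48 h at 20 °C. The DMSO group received 0.4% DMSO, the baicalein group 100 µM baicalein with DMSO at the same concentration according to the methods, and the water group neither. Total RNA of whole animals was read on Affymetrix Gene 1.1 ST arrays for this worm, 2 arrays per group numbered as trials 1 and 2, and the values are log2 intensities made by the authors with RMA (background correction, log2 transformation and quantile normalization). On this scale a difference of 1 is a doubling, and 1.51, the median of all values on all arrays, is read as little signal over background. Since RNA came from whole worms, more RNA per cell and more cells of a tissue cannot be told apart.

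Stage markers went against 1 of the labels. All groups are described as young adults, but the 6 named yolk and eggshell genes had means between 1.27 and 2.96 in water, near the median of all values, and between 7.26 and 10.10 in DMSO. All 6 were called higher in DMSO than in water (10.9% of all probe sets and 30.8% of named ones were called higher). Their summed linear level was 25.4 to 40.9 on the water arrays, 3708 to 3816 on the DMSO arrays and 2439 to 2567 on the baicalein arrays. All 9 named molting genes fell in DMSO against water, with a median log2 difference of -4.69, and 6 of them were at or under the median of all values in DMSO. Of all probe sets 16.7% were called lower, and of named ones 16.06%. All molting genes but *mlt-10* are named by the deposited table of DMSO against water, so their calls were favoured by the naming. Their sums were 1136 to 1202 in water, 48.2 to 51.8 in DMSO and 30.8 to 33.2 in baicalein. All 7 named oocyte genes rose in DMSO against water, by a median of 5.49, beside the same shares called higher (10.9% and 30.8%). With baicalein against DMSO 6 of them fell, with a median of -1.75 (7.03% of all probe sets and 26.0% of named ones were called lower). All 7 are named only by the deposited table of baicalein against DMSO, so the count is not independent evidence of direction. That count of 6 was 0 without DMSO replicate 1 and 2 without DMSO replicate 2. Their sums were 56.4 to 73.2 in water, 1711 to 1895 in DMSO and 591 to 597 in baicalein. At an adjusted p under 0.05 in either direction, 27.5% of all probe sets were called between DMSO and water, 22.2% between baicalein and water and 8.76% between baicalein and DMSO. The part of stage and germline in the values of *mtl-1* and *mtl-2* was not tested.

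*mtl-1* was lowest in DMSO, and *mtl-2* was highest in baicalein. The value of *mtl-1* was 7.40 and 7.76 on the water arrays of trials 1 and 2, 6.08 and 5.82 on the DMSO arrays, and 8.18 and 8.12 on the baicalein arrays. No group of arrays overlapped another for *mtl-1*, and the levels ran upward from DMSO through water to baicalein. The value of *mtl-2* was 4.75 and 5.20 on the water arrays, 5.19 and 4.81 on the DMSO arrays, and 7.42 and 7.71 on the baicalein arrays. For *mtl-2* the water and DMSO arrays overlapped, and both baicalein arrays lay above all 4 others. Gaps between 2 groups were common among all probe sets. Baicalein arrays lay above both DMSO arrays for 24.1% and below for 22.3%. DMSO arrays lay above both water arrays for 41.1% and below for 31.9%. For baicalein against water these shares were 37.8% and 31.3%. The share apart in all 3 groups, or with baicalein above all 4 others, was not counted. Every value of both genes was well over the median of all values.

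**Figure D1:**
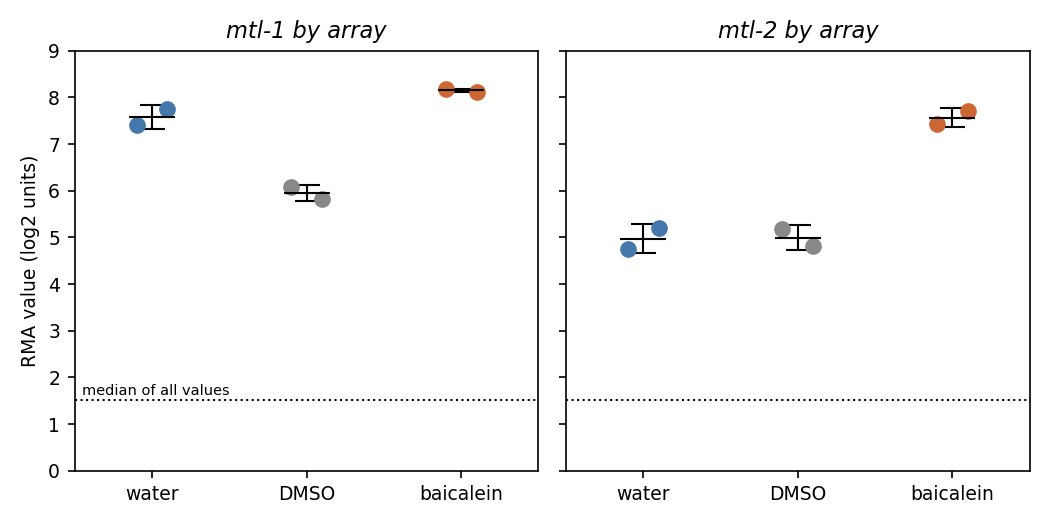
RMA values of *mtl-1* (left) and *mtl-2* (right) in log2 units on each of 6 arrays, with points for arrays, the horizontal bar for the group mean, error bars for the SD (n = 2) and a dotted line at the median of all values (1.51). *mtl-1* dips in DMSO (5.82 and 6.08) and *mtl-2* stands apart only in baicalein (7.42 and 7.71).

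Baicalein against its solvent compared worms with and without the flavone. Both metallothionein genes were higher under baicalein than under DMSO alone. Baicalein arrays averaged 8.15 ± 0.038 for *mtl-1* and DMSO arrays 5.95 ± 0.18 (SD over 2 arrays), 4.60-fold vs. control. Its log2 difference was 2.2 (95% interval 1.72 to 2.68, standard error 0.20), with an adjusted p of 0.00544 by limma. For *mtl-2* the baicalein arrays averaged 7.57 ± 0.21 and the DMSO arrays 5.0 ± 0.27 (SD over 2 arrays), 5.95-fold vs. control, a log2 difference of 2.57 (95% interval 2.00 to 3.15, standard error 0.24, adjusted p = 0.0055 by limma). Of all probe sets, 1.73% were called higher in this comparison at an adjusted p under 0.05, 24.1% had both baicalein arrays above both DMSO arrays, as both members did, and 22.3% had them below. The probe sets carry names because the authors' table of this same comparison lists them at an unadjusted p of 0.05 or less. Passing the test here is therefore favoured by the way they were named.

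Both trials gave values of the same direction. The log2 difference of *mtl-1* was 2.1 in trial 1 and 2.3 in trial 2, and over the 4 pairs of a baicalein with a DMSO array its differences ran from 2.05 to 2.35. The differences of *mtl-2* were 2.24 in trial 1 and 2.91 in trial 2, which were also its extremes over the 4 pairs. These differences exceeded the distance between arrays of a group, which was at most 0.36 for *mtl-1* and 0.44 for *mtl-2*. Ordered by the size of the rise, *mtl-2* was number 2 and *mtl-1* number 15 of 29317 probe sets. Only 8 of the 15 largest rises passed the threshold, and their standard errors ran from 0.16 to 1.23. Number 1 was an unnamed probe set, 18457965, whose log2 difference was 2.70 ± 0.43 (standard error) with an adjusted p of 0.0157 by limma. The place in this order moved with the arrays and the normalization, between 2 and 15 for *mtl-2* and between 15 and 37 for *mtl-1*. Without DMSO replicate 1 both genes had an adjusted p of 0.0624 from limma, the smallest that any of the probe sets reached in that fit.

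**Figure D2:**
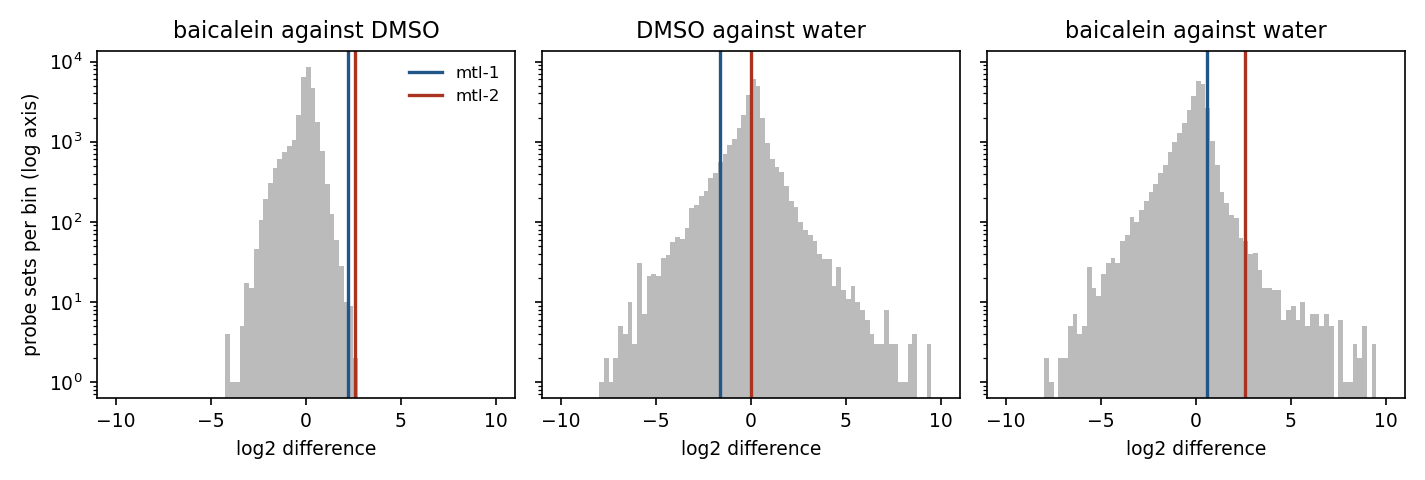
Histograms of the log2 differences of all 29317 probe sets (horizontal axis) with the number of probe sets per bin on a log axis (vertical), 1 panel per comparison, with vertical lines for *mtl-1* and *mtl-2*. Both lines lie at the upper edge for baicalein against DMSO (2.2 and 2.57), while for DMSO against water *mtl-1* lies at -1.63 and *mtl-2* at 0.02, near the centre.

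DMSO against water compared worms with and without solvent, and here the metallothionein genes parted. Stage markers also differed between these groups, so a change here cannot be credited to the solvent alone. The part of stage was not tested. *mtl-1* was 3.10-fold lower in DMSO-treated worms, from a mean of 7.58 ± 0.25 in water to 5.95 ± 0.18 (SD over 2 arrays). Its log2 difference was -1.63 (standard error 0.20, 95% interval -2.11 to -1.15, adjusted p = 0.0014 from limma). The difference was -1.33 in trial 1 and -1.94 in trial 2. *mtl-2* averaged 4.97 ± 0.31 on the water arrays and 5.0 ± 0.27 on the DMSO arrays (SD over 2 arrays). Its log2 difference was 0.02 (standard error 0.24, adjusted p = 0.957 from limma), and the 95% interval from -0.55 to 0.60 leaves room for a change of up to 1.51-fold upward. It was 0.43 higher in DMSO in trial 1 and 0.39 lower in trial 2 (-0.39). In this comparison 16.7% of all probe sets were called lower and 10.9% higher. Both DMSO arrays lay below both water arrays for 31.9% of all probe sets, *mtl-1* among them, and above for 41.1%.

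Baicalein against water set the treated worms beside worms without solvent. *mtl-2* was 6.04-fold higher than in water, with a log2 difference of 2.59 (standard error 0.24, 95% interval 2.02 to 3.17, adjusted p = 0.000573 from limma). *mtl-1* was 1.48-fold higher, with a log2 difference of 0.57 (standard error 0.20, 95% interval 0.09 to 1.05), and did not pass the threshold (adjusted p = 0.0889 from limma, unadjusted p = 0.0261). Both baicalein arrays lay above both water arrays for *mtl-1*, as they did for 37.8% of all probe sets, while 31.3% had them below. Of all probe sets 6.79% were called higher in this comparison. The 3 comparisons share arrays in pairs, so that a low value in DMSO enters both the fall from water and the rise to baicalein of *mtl-1*.

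**Figure D3:**
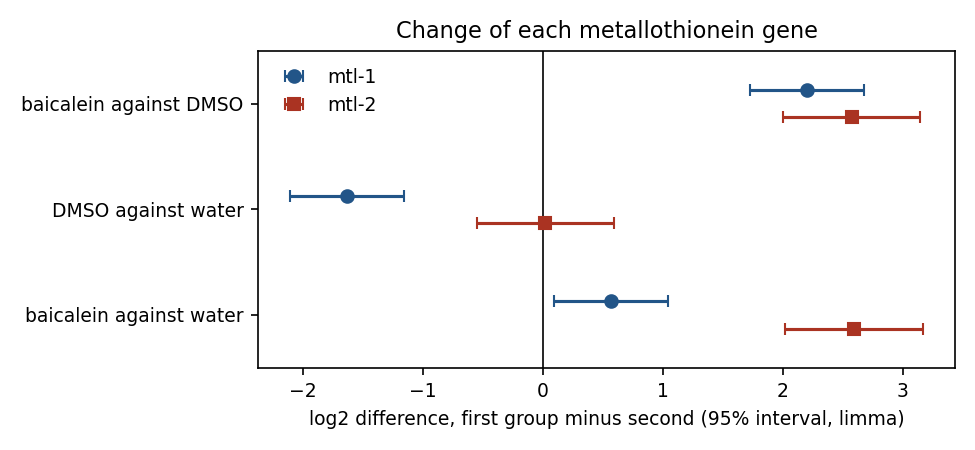
Log2 difference (first group minus second) of *mtl-1* (circles) and *mtl-2* (squares) in the 3 comparisons, with 95% intervals from limma over 6 arrays. The intervals of both genes lie near each other for baicalein against DMSO (2.2 and 2.57), and apart for DMSO against water (-1.63 and 0.02) and baicalein against water (0.57 and 2.59).

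The sizes of the responses were compared as the value of *mtl-2* minus that of *mtl-1* on the same array, in which any shift of a whole array cancels. Because the genes are read by different probes, only changes of this quantity are interpreted. It was -2.65 and -2.56 on the water arrays, -0.89 and -1.02 on the DMSO arrays, and -0.75 and -0.41 on the baicalein arrays. The water arrays thus stood far from the other 4, and the DMSO and baicalein arrays did not overlap but were close. The response of *mtl-2* exceeded that of *mtl-1* by 1.65 on the log2 scale for DMSO against water, by 2.03 for baicalein against water and by 0.37 for baicalein against DMSO. The last was 0.20 without baicalein replicate 2 and 0.31 to 0.54 without 1 of its other arrays, and 0.57 after cyclic loess normalization. An exact two-sided permutation test over 2 against 2 arrays gave p = 0.333 for each of these 3 comparisons (also 0.333 after Benjamini-Hochberg adjustment), which is the smallest p that this design allows.

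Among the named genes the closest pattern to *mtl-1* was a dip in DMSO, and the closest to *mtl-2* was a rise in baicalein. The genes were picked for likeness over these same arrays, so that they share the pattern follows from the choice. Likeness was measured as the root mean square distance over the 6 arrays between values centred on each gene's own mean. Nearest to *mtl-1* were *spig-11* (distance 0.273), T02B11.4 (0.288), *tatn-1* (0.362), R01B10.3 (0.365) and *sbt-1* (0.392). *tatn-1* encodes tyrosine aminotransferase and *sbt-1* a chaperone of neuropeptide processing. For *spig-11* the values were 6.24 and 5.90 in water, 4.87 and 4.24 in DMSO and 6.39 and 6.42 in baicalein, with DMSO below both other groups as for *mtl-1*.

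Nearest to *mtl-2* were *txt-17* (0.396), *thn-2* (0.418), *col-138* (0.427), C49C3.11 (0.51) and *smz-1* (0.542). *thn-2* encodes a thaumatin-like protein, *col-138* a cuticle collagen and *smz-1* a PDZ domain protein of sperm. For *txt-17* the values were 5.15 and 4.76 in water, 5.25 and 4.91 in DMSO and 7.02 and 6.94 in baicalein, so that water and DMSO overlapped as for *mtl-2*. The last 3 of these genes had water values under the median of all values.

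The metallothionein genes were not each other's nearest neighbours. Their distance was 0.887 and their Pearson correlation over the 6 arrays, which share 3 treatments, was 0.70. Of 4927 other named genes, 986 lay closer to *mtl-1* than *mtl-2* did, and 209 lay closer to *mtl-2* than *mtl-1* did. Named genes are those in the deposited tables, which list probe sets by their p in these same samples, so the counts describe that selection.

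**Figure D4:**
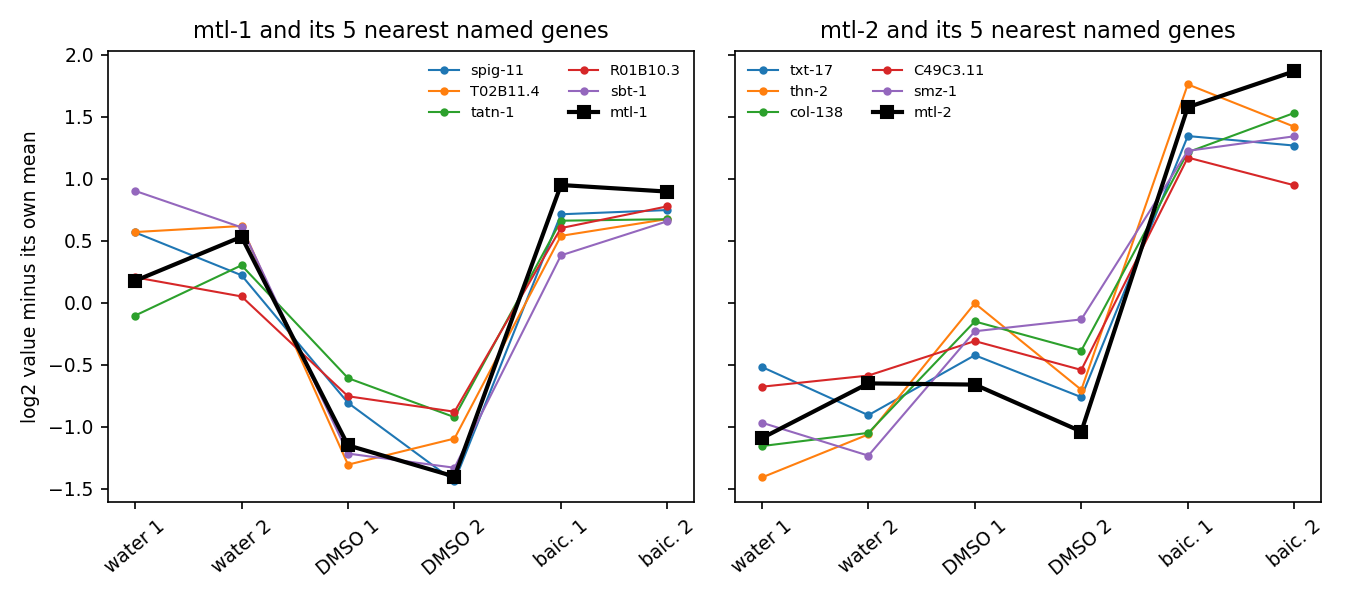
Log2 values of *mtl-1* (left) and *mtl-2* (right) and of the 5 nearest named genes of each, every gene minus its own mean (vertical axis), on the 6 arrays (horizontal axis; baic., baicalein), with lines joining the arrays of a gene. The *mtl-1* panel falls at the DMSO arrays (5.82 and 6.08 before centring) and the *mtl-2* panel rises at the baicalein arrays (7.42 and 7.71).

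Genes known to be activated by DAF-16 were described next, since *mtl-1* is counted among them. Of 25 such genes, with the metallothioneins left out, the tables name 11. With baicalein against DMSO 7 of these 11 rose, 4 missed the threshold and none fell, with a median log2 difference of 0.93. Over all probe sets the median was 0.05 and 1.73% were called higher, and over the 4957 named probe sets 6.35% were called higher and 26.0% lower. All 11 are named by the table of this comparison, so the count is not independent evidence of direction.

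The catalase gene *ctl-2* rose 2.15-fold, *fat-5* (a fatty acid desaturase) 2.07-fold and the lysozyme gene *lys-7* 2.32-fold vs. control. *gpd-2*, for the glycolytic enzyme glyceraldehyde-3-phosphate dehydrogenase, rose by 1.07 on the log2 scale and *hil-1*, for a linker histone, by 0.95. The adjusted p from limma was 0.0125 for *ctl-2*, 0.0154 for *fat-5*, 0.0264 for *lys-7*, 0.0274 for *gpd-2* and 0.0265 for *hil-1*. Leaving out DMSO replicate 1 or DMSO replicate 2 took the count of 7 to 0, leaving out either water array took it to 1, and leaving out baicalein replicate 2 took it to 3.

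Between water and DMSO the same list was split. Of the 11 genes, 4 rose in DMSO, 3 fell and 4 did not pass, with a median log2 difference of -0.16. Among all named probe sets 30.8% were called higher and 16.06% lower in this comparison. *ctl-2* (8.32 and 8.38 in water, 7.35 and 7.26 in DMSO, 8.39 and 8.42 in baicalein), *fat-5* and the aquaporin gene *aqp-1* fell, with log2 differences of -1.05, -1.35 and -1.27, the direction of *mtl-1*. *lys-7* rose by 1.77, *lys-8*, another lysozyme gene, by 1.21, *sip-1*, a small heat shock protein gene, by 3.35 and *lea-1*, of the late embryogenesis abundant proteins, by 1.64.

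**Figure D5:**
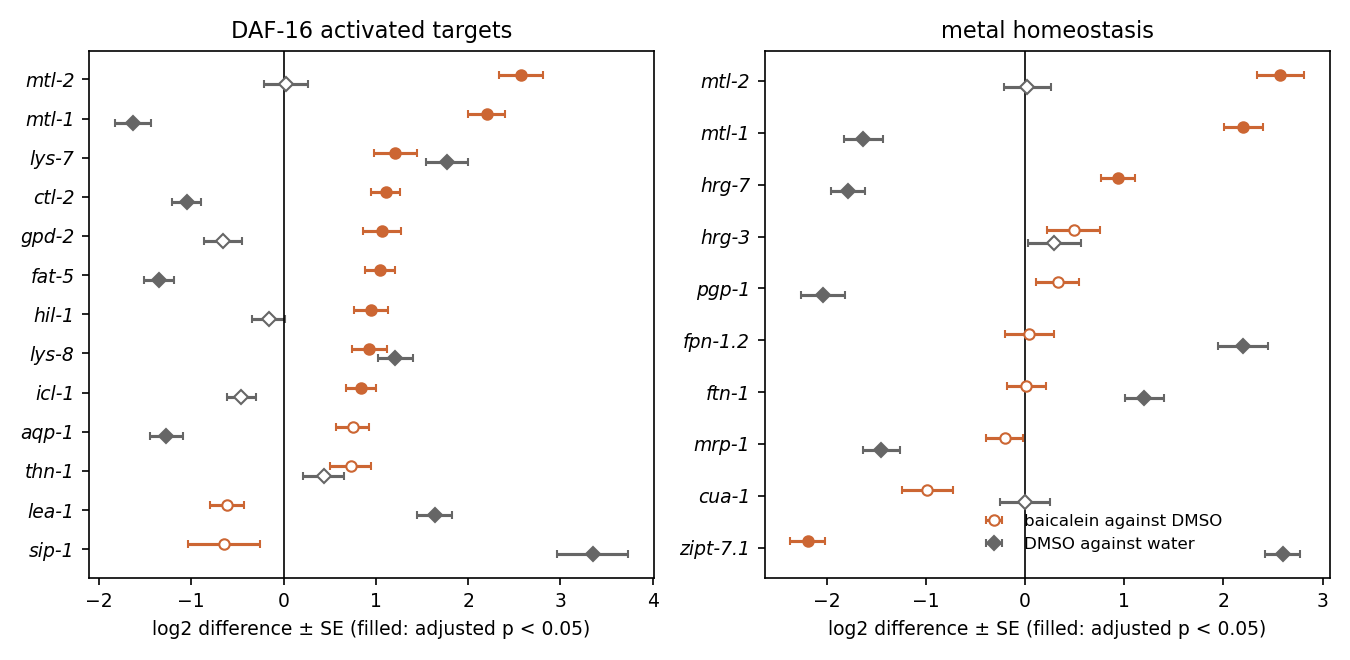
Log2 difference ± standard error for the named genes of the DAF-16 activated list (left) and of the metal homeostasis list (right), with *mtl-1* and *mtl-2* on top, for baicalein against DMSO (circles) and DMSO against water (diamonds), filled where the adjusted p from limma is under 0.05. Both metallothionein genes lie to the right of every other circle in both panels (2.2 and 2.57, against at most 1.21 and 0.94).

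The named genes that move or bind metals showed no common direction. Of 48 genes of zinc, cadmium, copper, iron and heme handling the tables name 8. Of these, 1 rose, 1 fell and 6 did not pass with baicalein against DMSO, with a median log2 difference of 0.03 beside 0.05 over all probe sets, of which 1.73% were called higher and 7.03% lower. *ftn-1*, *fpn-1.2*, *hrg-3*, *mrp-1* and *pgp-1* are named only by the table of DMSO against water. That they missed the threshold here was favoured by this naming, so the count and the median are not independent evidence. *hrg-7*, a secreted protease-like protein of heme signaling between tissues, rose by 0.94 (adjusted p = 0.0234 from limma). *zipt-7.1*, for a zinc transporter that acts in sperm activation, had a log2 difference of -2.19 (adjusted p = 0.00533 from limma). The call of *hrg-7* was lost without either water array, DMSO replicate 1 or DMSO replicate 2, and that of *zipt-7.1* without DMSO replicate 1. The copper-transporting ATPase gene *cua-1* was at -0.99 (adjusted p = 0.0674 from limma), and the heme-binding protein gene *hrg-3*, at 1.40 with baicalein and 0.92 with DMSO, lay under the median of all values.

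The iron storage gene *ftn-1* (ferritin) and the iron exporter gene *fpn-1.2* (ferroportin) were at log2 differences of 0.01 and 0.04 in that comparison. Between DMSO and water, 3 of the 8 genes rose, 3 fell and 2 did not pass, beside 30.8% of named probe sets called higher and 16.06% lower. A call here was favoured for the genes that the table of this comparison names. *fpn-1.2* rose by 2.2, and the transporter genes *mrp-1* and *pgp-1*, both linked to heavy metal tolerance in *C. elegans*, had log2 differences of -1.45 and -2.04. *pgp-1* was under the median of all values in DMSO. The direction of *mtl-1* in this comparison was therefore that of *hrg-7*, *mrp-1* and *pgp-1*, and its rise with baicalein was shared in call with *hrg-7* among the 8.

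Genes of insulin signaling upstream of DAF-16, with its cofactors, went the other way with baicalein against DMSO. Of 14 genes the tables name 8, and 6 of these fell against DMSO, none rose and 2 did not pass, with a median log2 difference of -1.11 (7.03% of all probe sets and 26.0% of named ones were called lower). All 8 are named only by the table of this comparison, so the count is not independent evidence of direction. The kinase gene *age-1* had a log2 difference of -1.17 and its adaptor *aap-1* -1.19. Against water these genes were at -0.08 and -0.28 with baicalein (adjusted p = 0.779 and 0.331 from limma). Of the 8 genes, 4 rose in DMSO against water and none fell (10.9% of all probe sets and 30.8% of named ones were called higher). With baicalein against water 3 fell and none rose (15.4% of all probe sets and 16.5% of named ones were called lower). Both of these counts were smaller in most fits with an array left out. *daf-16* itself was at 3.79 and 3.81 with baicalein and 4.28 and 4.33 with DMSO, a log2 difference of -0.51 that did not pass (adjusted p = 0.176 from limma). Against water *daf-16* was called lower with baicalein, with a log2 difference of -1.07 (adjusted p = 0.00813 from limma). Between DMSO and water its log2 difference was -0.56, which did not pass (adjusted p = 0.0672 from limma). The count of 6 was 0 without DMSO replicate 1, and 1 without DMSO replicate 2 or either water array.

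Of 9 regulators with a known or proposed part in metallothionein transcription, the tables name *daf-16* and *hsf-1*, the heat shock factor gene. *hsf-1* was at 4.52 and 4.48 in water, 5.60 and 5.54 in DMSO and 3.60 and 2.97 in baicalein. Its log2 difference was -2.28 for baicalein against DMSO (adjusted p = 0.00669 from limma) and 1.06 for DMSO against water (adjusted p = 0.0168 from limma), opposite in sign to those of *mtl-1* in both. Its call against DMSO was lost without DMSO replicate 1, and its call between DMSO and water was lost without either water array or either DMSO array.

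Markers of the intestine and pharynx gave 1 call with baicalein against DMSO. Both metallothionein genes are known to be active in the intestine, and *mtl-1* also in the pharynx. *ifp-1*, *ifo-1*, *pept-1*, *cpr-1*, *myo-1* and *tnc-2* are named only by the table of DMSO against water. For these genes a call between DMSO and water, and none between baicalein and DMSO, was favoured by the naming. Of 7 named intestine markers, 1, the intermediate filament gene *ifb-2*, rose against DMSO and 6 did not pass, with a median log2 difference of 0.60 and a range from 0.03 to 0.92 (1.73% of all probe sets were called higher). The call of *ifb-2* was lost without either water array, either DMSO array or baicalein replicate 2. Their sums were 1129 to 1224 in water, 705 to 813 in DMSO and 1194 to 1243 in baicalein. No marker was at or under the median of all values. DMSO is lowest in these sums, as for *mtl-1*, but linear sums weigh the brightest markers most. By their means *vha-6* (7.73 in water, 7.96 in DMSO) and *cpr-1* (5.16 and 6.14) were lowest in water, and the other markers in DMSO. With baicalein against water 4 of the 7 fell, 2 rose and 1 did not pass, with a median of -0.78. Of all probe sets 15.4% were called lower and 6.79% higher in that comparison. Between DMSO and water, 4 of the 7 fell, 1 rose and 2 did not pass, with a median of -1.35. Of all probe sets 16.7% were called lower and 10.9% higher, and of named ones 16.06% and 30.8%. The 1 that rose, *cpr-1*, lost its call without water replicate 1. Of 3 named pharynx markers none passed with baicalein, with a range from -0.39 to 1.1, and all 3 fell in DMSO against water, with a median of -1.92, of which 2 were called without either water array or either DMSO array. Their sums were 55.1 to 77.9 in water, 16.15 to 16.22 in DMSO and 17.2 to 31.0 in baicalein, and in DMSO 1 of them, *tnc-2*, was under the median of all values. The part of tissue content in the metallothionein values was not tested.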

How the data were processed

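The deposited log2 values were made by the authors with RMA. Its software version and the annotation build are not given in the sources used here. Upper quartiles ran from 2.46 to 3.26, so the arrays do not share 1 distribution. The authors' 2 tables (3619 and 1982 entries), whose further columns hold their fold changes and p-values, were used for names only (in 113 entries the columns are shifted). Names cover 4957 probe sets, updated through RefSeq.

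All 6 arrays entered 1 limma fit (limma 3.58.1, R 4.3.3) of 3 groups over 29317 probe sets, with Benjamini-Hochberg adjustment per comparison and 3 residual degrees of freedom. The labels call the trials independent without naming separate cultures, so the p-values reflect the spread of these arrays, which could be technical. Precision is limited by having 2 arrays a group, although the methods mention triplicates. The fit was tested on simulated data with independent noise and few changed probe sets. That setting lacked the wide differences between groups seen here, so it does not show how the fit performs on these arrays. Python 3.11.15 ran the other steps.

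Members and lists were chosen with earlier results of these data known. For genes with several probe sets the brightest on average was kept. Named are both members, the 5 nearest genes of each, and list members with the smallest p or singled out after their values were seen. Alternatives were a variance trend, the compared arrays only, median centring, quantile and cyclic loess normalization, no dim probe sets, a trial block, the methods' test and each array left out. A search of promoter motifs was planned and not run, since no sequence was used here. The value of 1 member of the insulin signaling list is not reported here by name.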

Additional observations from a re-analysis of the deposited data

How the results depend on the processing

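Under every alternative tried, *mtl-1* and *mtl-2* kept the direction and the side of the threshold of each change except as follows. Leaving out 1 array at a time gave log2 differences for baicalein against DMSO from 2.07 to 2.33 for *mtl-1* and from 2.38 to 2.76 for *mtl-2*, and only without DMSO replicate 1 did their adjusted p (0.0624 from limma) miss the threshold. The methods' test, judged unadjusted, kept both calls, but after Benjamini-Hochberg adjustment its p was 0.104 for *mtl-1* and 0.117 for *mtl-2* in this comparison, which misses the threshold used for limma. The change of *mtl-2* between DMSO and water, which did not pass, changed sign after quantile normalization applied again (-0.023), cyclic loess normalization (-0.038) and with arrays left out (-0.20 to 0.24). The cause was not tested. With an array left out, *mtl-1* ranged from -1.81 to -1.45 for DMSO against water and from 0.39 to 0.75 for baicalein against water, and *mtl-2* from 2.37 to 2.82 for the latter. The trial number as a replicate block gave 2.2 and 2.57 for baicalein against DMSO and changed no call of *mtl-1* or *mtl-2*. It left 2359 probe sets and 24 list members called for that comparison. Deviations of same-numbered arrays correlated at -0.05, -0.07 and 0.16 between groups. Having 2 arrays a group gives a single difference between trials per group, so these values cannot decide whether the numbers pair the arrays. Called probe sets for baicalein against DMSO numbered 2567, 1178 with only the arrays compared, 5032 by the methods' test and 0 to 4215 with an array left out (0 without DMSO replicate 1 by limma, where 4882 had an unadjusted p under 0.05). The share of higher calls, 19.8%, was 45.9% after quantile and 42.5% after cyclic loess normalization. It was 30.6%, 46.7% and 45.9% for baicalein against water. Calls for DMSO against water numbered 8073 (5145 to 9839 with an array left out) and for baicalein against water 6505 (3329 to 8825). List members called for baicalein against DMSO numbered 26, 15 with only the arrays compared and 0 to 26 with an array left out. The difference between both responses kept its sign, also with arrays left out (0.20 to 0.54 for baicalein against DMSO), a setting added after the data were seen.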
